A study of Mus musculus with 16 samples.

Results

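The 37 mitotic regulator genes are genes whose products take a dividing cell from mitotic entry through chromosome segregation to cytokinesis. They were taken by symbol from the polyA tables, where all 37 were among the 43626 genes of the read tables and the 24544 genes of the FPKM table (fragments per kilobase of transcript, scaled to the library). The study sequenced 2 mouse stromal lines derived from fetal liver of C57BL/6 mice at 14.5 days post coitum (dpc), as whole cells and as the exosomes the cells secrete. AFT024 is labelled supportive and BFC012 non-supportive of hematopoietic stem and progenitor cells. The polyA libraries used here thus form 4 groups (AFT024 exosomes, AFT024 cells, BFC012 exosomes and BFC012 cells), with 2 labelled samples in each. Each label class is represented by 1 line, so the class and the line cannot be told apart. The design text states that exosome RNA from several extractions was pooled, split into technical sequencing replicates and merged again. The tables hold 1 merged value per group, so there is no replicate spread and no test between groups. Both lines are known to have been made with a temperature-sensitive viral large T antigen, a step that the labels do not mention, and all 4 groups share it.

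Mitosis is driven by the kinase CDK1, which is active only when bound to a B-type or A-type cyclin. Centrosomes and spindle are built under Polo-like and Aurora kinases, kinetochores attach chromosomes to microtubules, and the spindle checkpoint holds the anaphase-promoting complex until every kinetochore is attached. The complex then marks cyclin B and securin for destruction, separase cuts cohesin, and the central spindle guides cytokinesis. Many of these genes are transcribed together late in the cell cycle. Their promoters are known to carry CCAAT boxes, bound by NF-Y, and a nearby element called the cell cycle genes homology region (CHR), through which the DREAM and B-MYB-MuvB-FOXM1 complexes act. Exosomes are small vesicles that carry RNA and protein out of the cell.

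The promoter windows of the CDK1 and cyclin genes show these letters, which much of the list shares although it was chosen by function. RefSeq windows of GRCm38.p6, from 250 bases before to 50 bases after the start, were matched by symbol for 32 of the 37 genes; Aurkb, Ccna2, Incenp, Smc4 and Tpx2 had no entry. The windows of Cdk1 (chr10:69352863-69353162, minus strand), Ccnb1 (chr13:100786437-100786736, minus strand), Ccnb2 (chr9:70421505-70421804, minus strand) and Cks2 (chr13:51644982-51645281, plus strand) are printed 5′ to 3′ on the gene's strand. Capitals mark TTTGAA (or TTCAAA, its other strand) and CCAAT (or ATTGG). No window of these 4 holds TTCGAA, a CHR form that reads the same on both strands.
Cdk1: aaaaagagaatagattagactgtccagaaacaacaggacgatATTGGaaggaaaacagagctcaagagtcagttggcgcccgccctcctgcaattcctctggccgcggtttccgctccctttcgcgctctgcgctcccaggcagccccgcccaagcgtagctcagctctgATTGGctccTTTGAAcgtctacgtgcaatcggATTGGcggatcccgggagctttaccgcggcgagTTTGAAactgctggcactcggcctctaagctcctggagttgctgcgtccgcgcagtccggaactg
Ccnb1: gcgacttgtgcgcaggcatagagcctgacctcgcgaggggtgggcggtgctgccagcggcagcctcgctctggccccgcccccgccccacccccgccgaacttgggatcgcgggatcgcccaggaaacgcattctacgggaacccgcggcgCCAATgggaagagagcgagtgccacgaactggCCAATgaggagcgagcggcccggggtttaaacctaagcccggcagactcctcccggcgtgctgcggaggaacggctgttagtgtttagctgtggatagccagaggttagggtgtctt
Ccnb2: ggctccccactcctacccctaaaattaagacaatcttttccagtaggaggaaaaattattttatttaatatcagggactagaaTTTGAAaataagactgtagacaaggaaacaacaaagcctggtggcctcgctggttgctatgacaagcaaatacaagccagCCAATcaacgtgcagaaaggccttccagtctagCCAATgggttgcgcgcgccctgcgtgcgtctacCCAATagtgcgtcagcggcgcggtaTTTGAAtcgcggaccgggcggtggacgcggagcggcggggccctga
Cks2: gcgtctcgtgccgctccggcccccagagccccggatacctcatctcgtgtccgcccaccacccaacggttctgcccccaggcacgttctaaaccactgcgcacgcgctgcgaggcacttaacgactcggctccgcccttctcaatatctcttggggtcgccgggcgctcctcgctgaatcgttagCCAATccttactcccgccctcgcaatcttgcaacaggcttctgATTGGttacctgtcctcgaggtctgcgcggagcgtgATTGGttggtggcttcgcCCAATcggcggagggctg
Cdk1 had CHR letters starting at -71 and -15, counted from the RefSeq start, and CCAAT letters at -208, -80 and -48. In Ccnb2 the CHR letters stood at -167 and 5, and the CCAAT letters at -87, -54 and -21. Ccnb1 and Cks2 held CCAAT letters (at -99 and -67, and at -65, -22, 15 and 33) and no match to the CHR letters.

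Over the 32 windows, TTTGAA or TTCGAA stood in 24 (75%), against 19.2% of all 32851 RefSeq windows of the same length. Within 50 bases of the start, a range chosen after the positions were seen, the CHR letters stood in 23 of the 32 (71.9%) and in 5.31% of all windows. CCAAT on either strand stood in 25 windows (78.1%) and in 37.4% of all, and 2 or more times in 18 (56.2%) and in 11.7% of all. Both kinds of letters stood in 22 windows (68.8%) and in 7.52% of all. Top2a, the topoisomerase that untangles sister chromatids, had 4 CHR matches. Matches of different motifs overlapped once in the members, in Cdca8. A match describes the letters and does not show that a factor binds there.

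**Figure D1:**
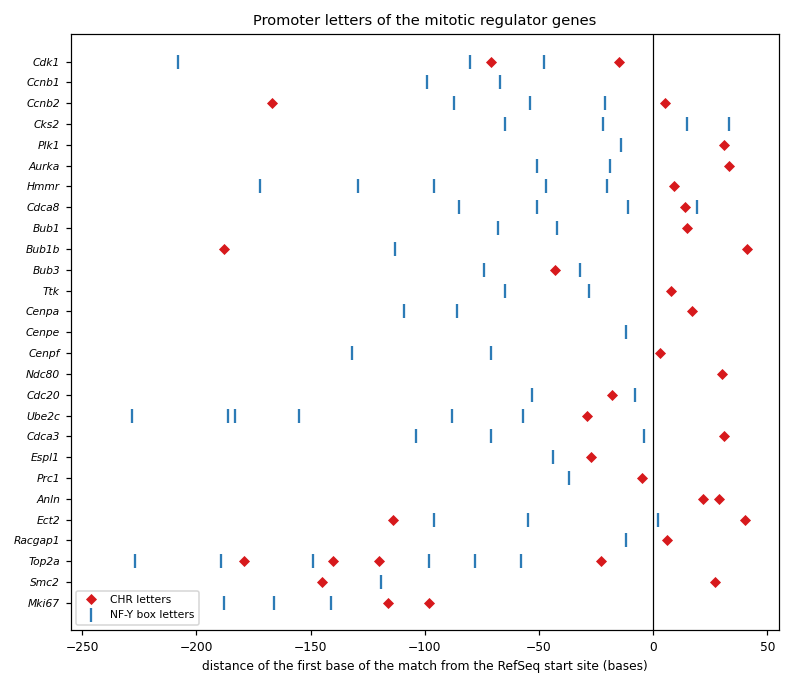
Positions of CHR letters (red diamonds) and NF-Y box letters (blue bars) in the promoter windows of members with a match, as the distance in bases from the RefSeq start site (vertical line at 0). In 23 of 32 windows the CHR letters lie within 50 bases of the start.

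Depth was 9038471 reads in the exosome library of AFT024 and 16344350 in that of BFC012. The cell libraries were deeper, with 39385534 and 35874383 reads. The 10 genes with the most reads took 11.2% to 11.9% of exosome reads and 4.35% to 4.77% of cell reads. Stromal identity was checked on 11 markers, which summed to 2187 to 7136 RPM (reads scaled to the library total). Vim, Cxcl12 and Col1a1 were read in every group, whereas Thy1 had 1 read in all. Much of the sum came from few genes, with Cxcl12 at 4708 and Vim at 1579 RPM in BFC012 cells. Other markers differed between the lines. Col1a2 had 171 and 1717 reads in AFT024 exosomes and cells, and 5 and 12 in BFC012 exosomes and cells. Nt5e had 2 and 67 reads in AFT024 exosomes and cells, and 34 and 3800 in BFC012 exosomes and cells. Of 11 hematopoietic markers, summing to 16.2 to 124 RPM, nearly all reads were Cd34, while Hbb-bt and Emr1 were at 0. The 6 endothelial markers summed to 0.838 to 1.53 RPM. Liver markers summed to 755 RPM in AFT024 cells, of which Dlk1 made 754, and to 3.12 to 31.1 RPM in the other groups. The part of these markers in the results was not tested.

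All 37 genes had 20 or more reads in every group, the minimum used in 1 or more groups for the genome-wide counts (13720 genes). They took 0.468% of the reads of AFT024 exosomes (exact 95% interval 0.463% to 0.472%), 0.695% of BFC012 exosomes (0.691% to 0.699%), 0.815% of AFT024 cells (0.812% to 0.818%) and 0.924% of BFC012 cells (0.921% to 0.928%). The share was thus lowest in AFT024 exosomes and highest in BFC012 cells, with no overlap of the counting intervals. These intervals, like all others here, cover counting error only. In a bulk library, fewer cells in mitosis and less of these RNAs per cell cannot be told apart.

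Per length, the median FPKM of the list was 12.9 in AFT024 exosomes, 22.8 in BFC012 exosomes, 61.3 in AFT024 cells and 77.8 in BFC012 cells. Cdk1 was the highest of the list in both cell groups, at 325 FPKM in AFT024 and 335 FPKM in BFC012. In exosomes the order was another one. Incenp, the scaffold of the chromosomal passenger complex, was highest in AFT024 exosomes at 97.2 FPKM, and Cdc20, the activator of the anaphase-promoting complex, in BFC012 exosomes at 180.1 FPKM. Cenpf, a large kinetochore protein, was the lowest in both cell groups at 12.5 and 13.2 FPKM, yet reached 24.9 and 22.8 FPKM in AFT024 and BFC012 exosomes. The lowest exosomal levels were 1.68 FPKM for Ndc80 in AFT024 and 3.42 FPKM for Smc2 in BFC012.

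**Figure D2:**
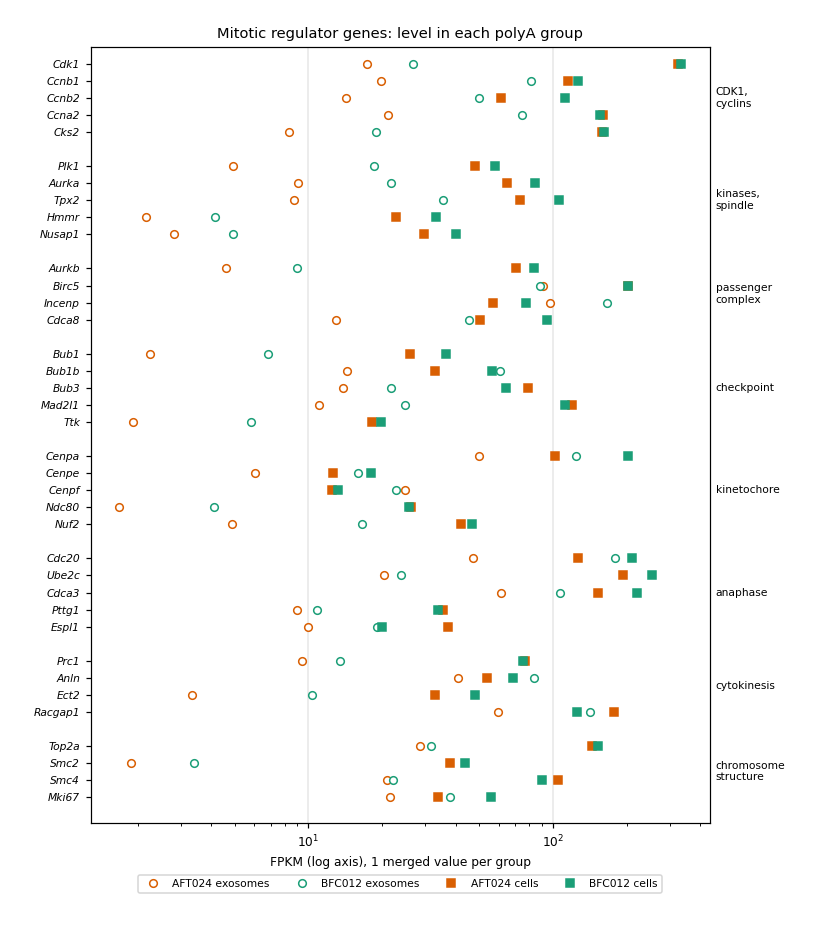
FPKM (log axis) of the 37 genes, grouped by role, in exosomes (open circles) and cells (filled squares) of AFT024 (orange) and BFC012 (green), with 1 merged value per group. Cell values lie to the right of exosome values for most genes, while Cenpf and Incenp lie higher in exosomes of both lines.

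The comparison of exosomes with their cells asks which transcripts were over- or under-represented in the exosome library. Whole reads were divided by a size factor for each group (scaled reads), and a gene was counted as higher at a ratio of 2 or more and as lower at 0.5 or less. Where a pair of ratios follows a gene's name, AFT024 comes first, and intervals are exact 95% counting intervals. In AFT024, 21 of the 37 genes were 2-fold or more lower in exosomes, against 27.8% of all 13535 genes with a ratio, and 2 were 2-fold or more higher, against 21.2%. In BFC012, 14 were lower, against 27.1% of 13393 genes, and 6 were higher, against 23.1%. The median log2 ratio of the list was -1.45 in AFT024 and -0.57 in BFC012, where the medians of all genes were -0.24 and -0.12. Taken relative to the median gene, the list had 19 lower and 3 higher genes in AFT024, and in BFC012 the numbers were 13 and 7. With library size as the scale, 2 genes were higher in BFC012 and 20 lower. With FPKM plus 1 as deposited, 1 was higher and 26 lower in BFC012, and 0 and 32 in AFT024. By FPKM, exosomes were above cells for Incenp and Cenpf in AFT024 and for these and Bub1b, Anln and Racgap1 in BFC012. The other genes above 1 in scaled reads change side with the unit, namely Birc5, Bub1b, Cenpa, Cenpe, Cdca3, Anln and Mki67 in AFT024 and Ccnb1, Ccna2, Cdca8, Cenpa, Cenpe, Cdc20, Cdca3, Espl1 and Mki67 in BFC012. Of these, Cdc20 is the gene counted as 2-fold or more higher.

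Of all genes called, 43.3% in AFT024 and 46.0% in BFC012 were higher in exosomes. These shares were 27.5% and 27.2% with library size, 57.4% and 54.0% with upper-quartile scaling, 53.8% and 52.5% with no read filter, and 10.5% and 15.05% with FPKM plus 1 as deposited. The split between higher and lower is therefore set in part by the scale, and the direction of a gene near a ratio of 1 is not fixed.

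Lower in both lines were 13 genes, namely Cdk1, Cks2, Hmmr, Nusap1, Aurkb, Bub1, Mad2l1, Ndc80, Ube2c, Prc1, Ect2, Top2a and Smc2. That is 13 of 37, where 17.5% of all 13720 genes were lower in both. Higher in both were Incenp and Cenpf, 2 of 37, where 15.2% of all genes were higher in both. A further 8 were lower in AFT024 only by this count (Ccnb1, Ccna2, Plk1, Aurka, Tpx2, Bub3, Ttk and Nuf2), 4 were higher in BFC012 only (Bub1b, Cdc20, Anln and Racgap1) and Smc4 was lower in BFC012 only. The other 9 did not reach 2-fold in either line. Calls made in 1 line only were not counted over all genes, so these numbers only describe the list. Just short of the limit stood Anln at 1.96 and Smc4 at 0.507 in AFT024, and Aurka at 0.513 in BFC012. Across the 37 genes the log2 ratios of the lines, which share no library, had a Spearman rho of 0.903 and a Pearson r of 0.880, and across 13208 genes 0.768 and 0.783. Genes are not independent replicates, and each gene has the same length in both lines, so these values only describe the likeness.

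**Figure D3:**
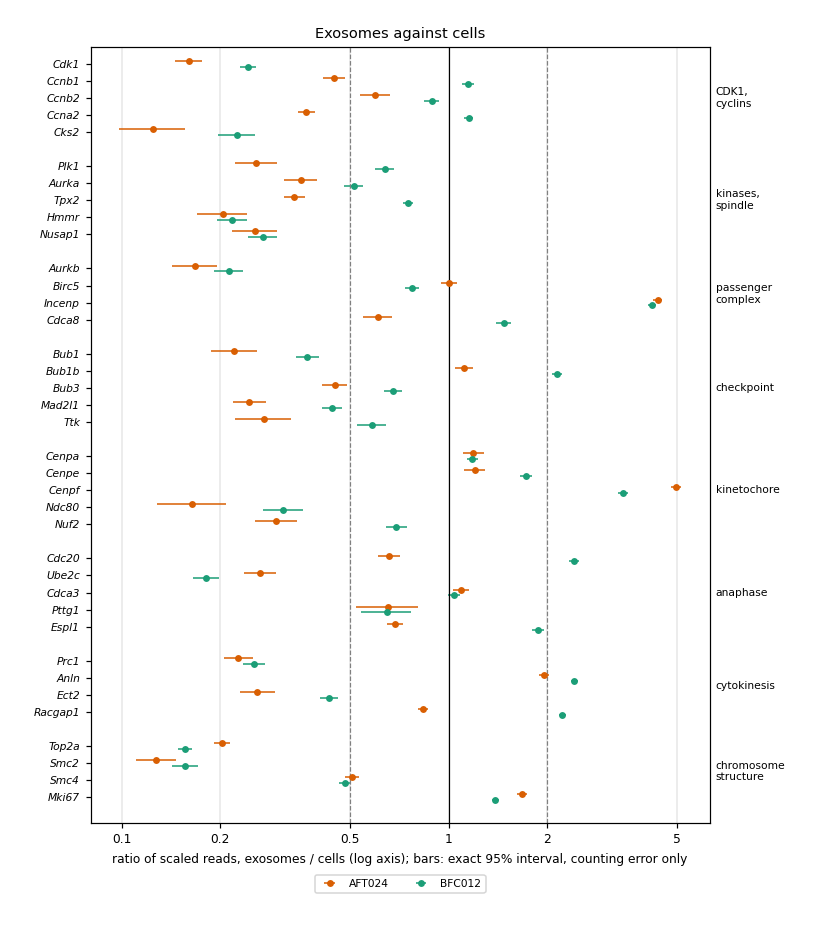
Ratio of scaled reads in exosomes to cells (log axis) for each gene in AFT024 (orange) and BFC012 (green). Bars are exact 95% counting intervals and dashed lines mark 2-fold. Incenp and Cenpf lie beyond 2-fold higher in both lines, and 13 genes beyond 2-fold lower in both.

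**Figure D4:**
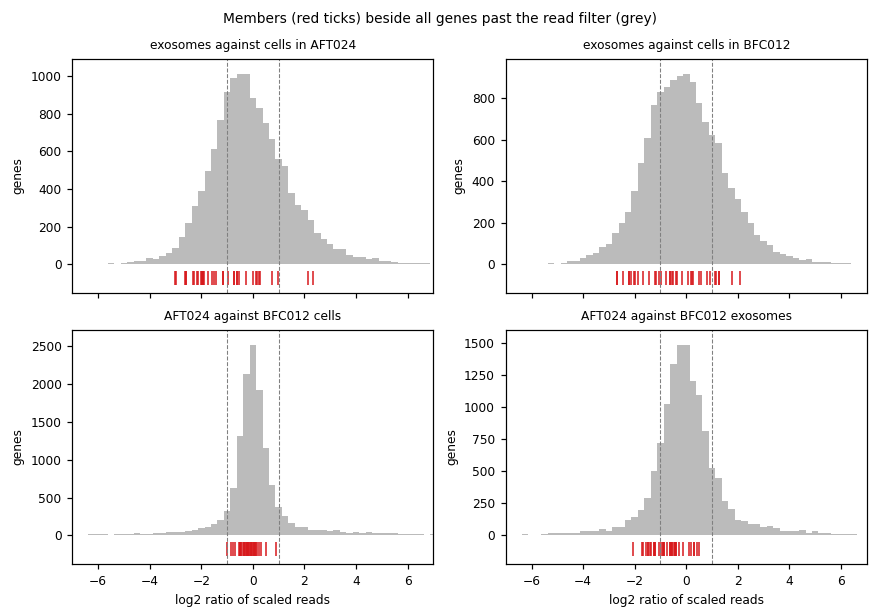
Log2 ratios of scaled reads of all genes with 20 or more reads in a group (grey; the vertical axis gives the number of genes) and of the 37 mitotic genes (red ticks) in the 4 comparisons, with dashed lines at 2-fold. The axis is drawn from -7 to 7. In the comparison of cells no red tick lies beyond 2-fold.

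CDK1 and its partners were lower in AFT024 exosomes in 4 of 5 cases, and in BFC012 exosomes in 2 of 5. Of all genes, 27.8% were lower in AFT024 exosomes and 27.1% in BFC012 exosomes. Counts in sets this small, here and below, only describe their members. Cdk1 (ENSMUSG00000019942, chr10:69336635-69352938 in the deposited table, mm10), the mitotic kinase itself, had 1238 scaled reads in AFT024 exosomes against 7733 in AFT024 cells, and 1920 in BFC012 exosomes against 7895 in BFC012 cells. Both exosome values were below both cell values, and the ratio was 0.160 (interval 0.146 to 0.176) in AFT024 and 0.243 (interval 0.229 to 0.258) in BFC012. Cks2, the small CDK-binding subunit, had 206 and 1660 scaled reads in AFT024 exosomes and cells and 378 and 1682 in BFC012 exosomes and cells. Its ratio of 0.124 (interval 0.0977 to 0.156) was the lowest of the list in AFT024, resting on 76 exosome reads, and in BFC012 it was 0.224 (interval 0.196 to 0.256). The cyclins stood apart from their kinase. Ccna2, cyclin A2, had 2884 and 7860 scaled reads in AFT024 exosomes and cells and 8078 and 7009 in BFC012 exosomes and cells, a ratio of 0.367 (interval 0.344 to 0.390) in AFT024 and 1.15 (interval 1.12 to 1.19) in BFC012. Ccnb1, cyclin B1, had 1960 and 4398 scaled reads in AFT024 exosomes and cells and 4666 and 4065 in BFC012 exosomes and cells, with ratios of 0.446 (interval 0.413 to 0.481) and 1.15 (interval 1.10 to 1.20). For both cyclins the BFC012 exosome value was above the value in its own cells in scaled reads (in FPKM it was below), and the AFT024 exosome value was the lowest of the 4. Ccnb2, cyclin B2, did not reach 2-fold, at 0.596 and 0.887.

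All 5 genes of centrosome and spindle assembly were 2-fold or more lower in AFT024 exosomes, where 27.8% of all genes were. In BFC012 exosomes 2 of the 5 were lower, where 27.1% of all genes were. Hmmr, a microtubule-bound spindle protein, had 361 scaled reads in AFT024 exosomes against 1778 in AFT024 cells, and 550.0 in BFC012 exosomes against 2531 in BFC012 cells. Its ratios of 0.203 (interval 0.170 to 0.241) and 0.217 (interval 0.195 to 0.242) had overlapping intervals in the lines. Nusap1, which bundles spindle microtubules, did the same at 0.255 (interval 0.218 to 0.297) and 0.270 (interval 0.243 to 0.299). Plk1, the Polo-like kinase of mitotic entry, had 532 and 2066 scaled reads in AFT024 exosomes and cells and 1566 and 2458 in BFC012 exosomes and cells. The ratio was 0.258 (interval 0.222 to 0.297) in AFT024 and 0.637 (interval 0.595 to 0.682) in BFC012, with intervals far apart. Aurka, the Aurora kinase of the spindle poles, and Tpx2, its activator, had ratios of 0.353 and 0.337 in AFT024 and of 0.513 and 0.753 in BFC012.

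The 4 subunits of the chromosomal passenger complex, which corrects kinetochore attachments and later acts in cytokinesis, were spread over the whole range. Incenp (ENSMUSG00000024660, chr19:9872297-9899533), the scaffold, had 16735 scaled reads in AFT024 exosomes against 3829 in AFT024 cells, and 21910 in BFC012 exosomes against 5216 in BFC012 cells. Both exosome values were above both cell values, and the ratios were 4.37 (interval 4.23 to 4.52) and 4.20 (interval 4.10 to 4.31). Aurkb, the kinase of the complex, had 448 scaled reads in AFT024 exosomes against 2677 in AFT024 cells, and 660.4 in BFC012 exosomes against 3113 in BFC012 cells. Here both exosome values were below both cell values, at 0.167 (interval 0.143 to 0.195) and 0.212 (interval 0.192 to 0.234). The exosome-to-cell ratio of Incenp was thus 26.1 times that of Aurkb in AFT024 and 19.8 times in BFC012. Birc5, survivin, had ratios of 1.003 (interval 0.948 to 1.06) and 0.772 (interval 0.734 to 0.813). Cdca8, borealin, was at 0.607 (interval 0.546 to 0.673) in AFT024 and 1.47 (interval 1.40 to 1.56) in BFC012, on opposite sides of 1 in scaled reads. In log2(FPKM + 1) its exosome level was below the cell level in both lines, by -1.89 in AFT024 and -1.03 in BFC012. Cdca8 shares 232 exon bases with 9930104L06Rik on the other strand, and the strand setting of the counting is not given in the sources used here. That neighbour had 413 and 1603 reads in AFT024 exosomes and cells, and 1489 and 1285 in BFC012 exosomes and cells. Its part in the Cdca8 ratios was not tested.

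Of the 5 spindle checkpoint genes, 4 were lower in AFT024 exosomes, while in BFC012 exosomes 2 were lower and 1 higher. Over all genes, 27.8% and 27.1% were lower in AFT024 and BFC012 exosomes, and 21.2% and 23.1% higher. Bub1, the checkpoint kinase at kinetochores, had 421 scaled reads in AFT024 exosomes against 1906 in AFT024 cells, and 977 in BFC012 exosomes against 2644 in BFC012 cells, with ratios of 0.221 (interval 0.187 to 0.259) and 0.370 (interval 0.340 to 0.402). Bub1b, which encodes its relative BubR1 of the inhibitory checkpoint complex, had 2876 scaled reads in AFT024 exosomes against 2578 in AFT024 cells, and 9347 in BFC012 exosomes against 4352 in BFC012 cells. The BFC012 exosome value was the highest of the 4, and the ratios were 1.12 (interval 1.04 to 1.19) and 2.15 (interval 2.08 to 2.22). The ratio of Bub1b was 5.05 times that of Bub1 in AFT024 and 5.81 times in BFC012. Mad2l1, the MAD2 protein that binds CDC20, was at 0.245 and 0.441. Ttk, the kinase MPS1, was at 0.271 and 0.581, and Bub3, the partner of both BUB proteins, at 0.448 and 0.674.

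Among centromere and kinetochore genes, Cenpf was higher in both lines, and Ndc80, a microtubule-binding subunit, was lower in both. Cenpf (ENSMUSG00000026605, chr1:189640606-189688086) had 15252 scaled reads in AFT024 exosomes against 3059 in AFT024 cells, and 10940 in BFC012 exosomes against 3199 in BFC012 cells. Both exosome values were well above both cell values, with ratios of 4.99 (interval 4.81 to 5.17) and 3.42 (interval 3.31 to 3.54), the former being the largest of the list. Ndc80 had 190.1 scaled reads in AFT024 exosomes against 1159 in AFT024 cells, and 349.6 in BFC012 exosomes against 1122 in BFC012 cells. Its ratios were 0.164 (interval 0.127 to 0.208), from 70 exosome reads, and 0.312 (interval 0.270 to 0.357). Nuf2, its binding partner in the same complex, was at 0.297 and 0.692. Cenpa, the centromeric histone H3 variant, was at 1.19 (interval 1.11 to 1.28) and 1.18 (interval 1.14 to 1.23), with overlapping intervals. Cenpe, a kinetochore motor, was at 1.20 (interval 1.12 to 1.29) and 1.73 (interval 1.66 to 1.80).

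Among the anaphase genes, Cdc20 differed widely between the lines in scaled reads. It (ENSMUSG00000006398, chr4:118432901-118437352) had 1990 scaled reads in AFT024 exosomes against 3021 in AFT024 cells, and 8417 in BFC012 exosomes against 3464 in BFC012 cells. The BFC012 exosome value was the highest of the 4 and the AFT024 exosome value the lowest, and the ratio was 0.659 (interval 0.610 to 0.711) in AFT024 and 2.43 (interval 2.34 to 2.52) in BFC012. In FPKM the BFC012 direction turned, with 180.1 in exosomes against 211 in cells. On the log2(FPKM + 1) scale the AFT024 exosome-to-cell difference of Cdc20 was -1.18 relative to BFC012, against -1.84 for Ccnb1, -1.82 for Ccna2, -1.74 for Racgap1 and -1.73 for Espl1. Ube2c, the ubiquitin-conjugating enzyme that works with the same complex, had 877 scaled reads in AFT024 exosomes against 3322 in AFT024 cells, and 782 in BFC012 exosomes against 4317 in BFC012 cells. It was lower in both lines, at 0.264 (interval 0.235 to 0.295) and 0.181 (interval 0.165 to 0.198). The ratio of Cdc20 was 2.50 times that of Ube2c in AFT024 and 13.4 times in BFC012. Espl1, separase, had 3717 and 5440 scaled reads in AFT024 exosomes and cells and 5438 and 2895 in BFC012 exosomes and cells. It was at 0.683 (interval 0.646 to 0.723) in AFT024 and 1.88 (interval 1.80 to 1.96) in BFC012, again on opposite sides of 1 in scaled reads. In log2(FPKM + 1) the exosomes were below the cells in both lines, by -1.80 in AFT024 and -0.07 in BFC012. Pttg1, securin, had the fewest reads in both cell groups (852 in AFT024 and 746 in BFC012), and its ratios of 0.651 (interval 0.521 to 0.805) and 0.646 (interval 0.540 to 0.769) overlapped. Cdca3, which takes part in the turnover of WEE1, had ratios of 1.09 and 1.04.

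The central spindle and cytokinesis genes split into pairs. Anln, anillin of the contractile ring, had 12344 scaled reads in AFT024 exosomes against 6303 in AFT024 cells, and 19298 in BFC012 exosomes against 7955 in BFC012 cells, with ratios of 1.96 (interval 1.89 to 2.03) and 2.43 (interval 2.37 to 2.48). Prc1, which bundles the antiparallel microtubules of the central spindle, had 1083 scaled reads in AFT024 exosomes against 4774 in AFT024 cells, and 1168 in BFC012 exosomes against 4611 in BFC012 cells, with ratios of 0.227 (interval 0.205 to 0.251) and 0.253 (interval 0.235 to 0.273). Racgap1, a subunit of centralspindlin, had 9181 and 10971 scaled reads in AFT024 exosomes and cells and 17105 and 7658 in BFC012 exosomes and cells. Its ratio was 0.837 (interval 0.807 to 0.868) in AFT024 and 2.23 (interval 2.18 to 2.29) in BFC012. Ect2, the RhoA exchange factor that centralspindlin recruits, was lower in both lines, at 0.259 (interval 0.229 to 0.293) and 0.431 (interval 0.405 to 0.459). The ratio of Racgap1 was 3.23 times that of Ect2 in AFT024 and 5.18 times in BFC012.

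Of the 4 chromosome structure genes, 2 were lower in AFT024 exosomes and 3 in BFC012 exosomes, and none was higher. Over all genes, 27.8% and 27.1% were lower in AFT024 and BFC012, and 21.2% and 23.1% higher. Smc2, a core ATPase of condensin, had 559 scaled reads in AFT024 exosomes against 4403 in AFT024 cells, and 780.0 in BFC012 exosomes against 5001 in BFC012 cells. Its ratios of 0.127 (interval 0.110 to 0.146) and 0.156 (interval 0.142 to 0.171) were among the lowest of the list in both lines. Smc4, its partner in condensin, was at 0.507 (interval 0.482 to 0.533) and 0.482 (interval 0.462 to 0.503), so that its ratio was 3.99 times that of Smc2 in AFT024 and 3.09 times in BFC012. Top2a had the most reads of the list in both cell groups, with 3326 and 16446 scaled reads in AFT024 exosomes and cells and 2682 and 17226 in BFC012 exosomes and cells. Its ratios were 0.202 (interval 0.191 to 0.214) and 0.156 (interval 0.148 to 0.163). Mki67, the Ki-67 antigen that coats mitotic chromosomes, lay on the other side of 1, at 1.68 (interval 1.62 to 1.73) and 1.39 (interval 1.36 to 1.42). The partner pairs named here and above were chosen with their values known and only describe the spread within complexes.

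Between the cells of the lines, none of the 37 genes reached 2-fold, where 12.1% of all 13692 genes were 2-fold or more higher and 9.53% lower in AFT024. The median log2 ratio of AFT024 to BFC012 was -0.20, against -0.0035 for all genes. Cenpa was closest to the limit on the lower side, with 2060 scaled reads in AFT024 and 4091 in BFC012, a ratio of 0.504 (interval 0.485 to 0.522). It passed 2-fold under library size and upper-quartile scaling. Espl1 was farthest on the higher side, at 1.88 (interval 1.82 to 1.94), followed by Racgap1 at 1.43 (interval 1.40 to 1.46). Cdk1, Cks2 and Top2a lay close to 1, at 0.979, 0.987 and 0.955. Counting intervals lay below 1 for 24 genes and above 1 for 9, and held 1 for 4. The side of these intervals was not counted over all genes, so these numbers only describe the list.

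Between exosomes, 13 of the 37 genes were 2-fold or more lower in AFT024 and none higher, where 15.6% of 13237 genes were lower and 15.6% higher. The median log2 ratio was -0.75, against -0.07 for all genes. Cdc20 had the lowest ratio, 0.236 (interval 0.219 to 0.255), followed by Bub1b at 0.308 (interval 0.288 to 0.328), Tpx2 at 0.315 (interval 0.290 to 0.341) and Plk1 at 0.340 (interval 0.290 to 0.396). Among the cyclins, Ccna2, Ccnb2 and Ccnb1 were at 0.357, 0.373 and 0.420. On the other side were Cenpf at 1.39 (interval 1.35 to 1.44), Birc5 at 1.34 (interval 1.25 to 1.44), Top2a at 1.24 (interval 1.15 to 1.34) and Smc4 at 1.23 (interval 1.16 to 1.31), all short of 2-fold. The chromosome structure genes as a group had a median ratio of 0.953, and the CDK1 and cyclin genes one of 0.420. This comparison uses the same exosome groups as the ratios to cells above.

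**Figure D5:**
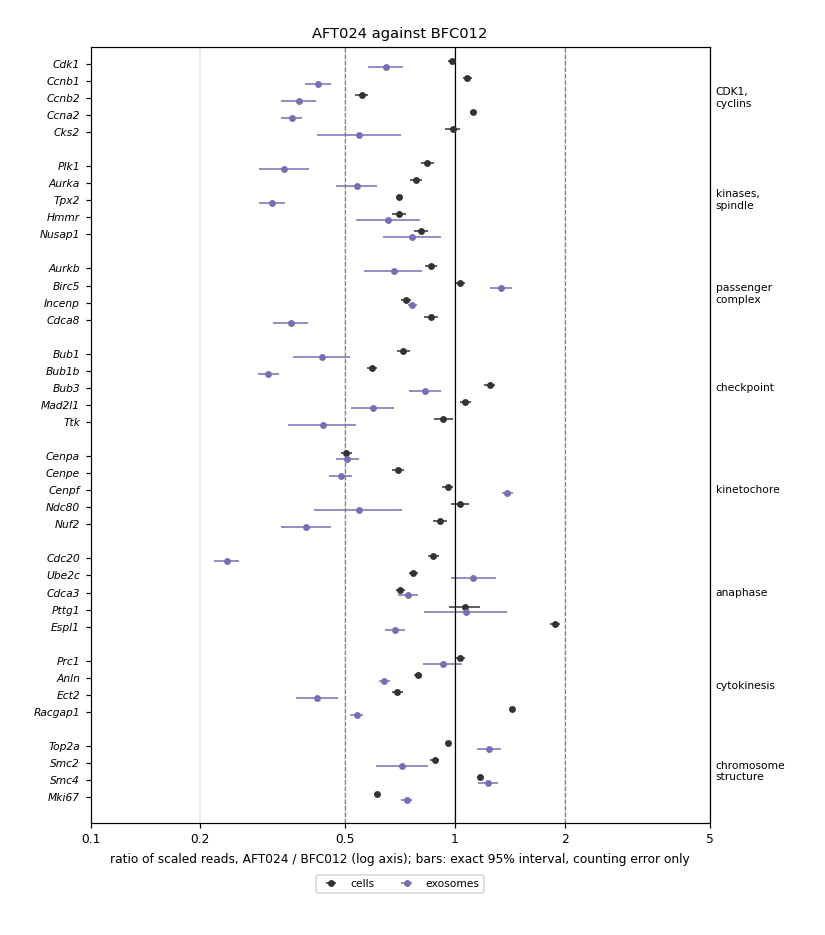
Ratio of scaled reads in AFT024 to BFC012 (log axis) for each gene in cells (dark) and in exosomes (purple), with exact 95% counting intervals and dashed lines at 2-fold. The cell ratios lie between 0.504 and 1.88, and the exosome ratios between 0.236 and 1.39.

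Set side by side, the exosome-to-cell ratios of 22 genes were lower in AFT024 than in BFC012 with counting intervals apart, those of 5 genes were higher (Birc5, Cenpf, Ube2c, Top2a and Mki67), and those of 10 overlapped. Over all 13720 genes the corresponding shares were 28.2% and 17.3%. The ratio of these ratios reached 2-fold for 10 of the 37 genes, all in the direction of a lower value in AFT024, where 11.7% of 13208 genes did so and another 11.7% the reverse. The median log2 difference was -0.57, against -0.09 for all genes. Overlapping intervals were found for Hmmr, Nusap1, Aurkb, Incenp, Cenpa, Cdca3, Pttg1, Prc1, Smc2 and Smc4. With 1 merged value a group, none of these differences has a replicate check.

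Beyond the list, 141 other genes of mitosis and the cell cycle, all with enough reads in a group, were followed in 8 sets. In AFT024 exosomes 59 were 2-fold or more lower and 15 higher than in cells, and in BFC012 44 of 140 were lower and 17 higher. The lower share was 41.8% in AFT024, where 27.8% of all genes were lower, and 31.4% in BFC012, close to the 27.1% of all genes. Higher were 10.6% and 12.1%, where 21.2% and 23.1% of all genes were higher, and the counts of the small sets are to be read against the same shares. Between cells 7 (4.97%) were lower and 3 (2.13%) higher in AFT024, where 9.53% of all genes were lower and 12.1% higher. Between exosomes 35 (24.8%) were lower and 7 (4.97%) higher in AFT024, where 15.6% of all genes were lower and 15.6% higher. The exosome-to-cell ratio was 2-fold or more lower in AFT024 than in BFC012 for 21 of 140 genes (15%). For 4 (2.86%) it was higher, where 11.7% of all genes lay on each side. The lean to lower values in AFT024 exosomes was thus not found in the 37 genes only. The median log2 ratio to cells of these other genes was -0.81 in AFT024 and -0.51 in BFC012, so the lower median was not found in the 37 genes only. Of each set, the 3 genes with the most scaled reads are named here. Kinetochore genes were lower in 12 of 29 cases and higher in 3 in AFT024, and in BFC012 8 were lower and 3 higher. Mis12, a kinetochore assembly factor, had ratios of 2.86 and 2.90, Zwint 0.440 and 0.547, and Hjurp, the chaperone of CENP-A, 1.14 and 1.503. Of the 6 other condensin subunits 3 were lower in each line, and Ncapd2 was at 1.07 and 1.93, Ncapg2 at 0.513 and 0.613 and Ncaph2 at 0.664 and 0.858. In the anaphase-promoting complex set of 17, 7 were lower and 1 higher in AFT024, against 6 and 2 in BFC012. Anapc5, a scaffold subunit, was at 4.24 (interval 4.15 to 4.34) and 3.95 (interval 3.87 to 4.02). Anapc1 was at 0.930 and 1.04. Fzr1, the CDH1 activator that replaces CDC20 late in mitosis, was at 1.22 and 3.48. Like Cdc20, it was lower in AFT024 than in BFC012 exosomes, at 0.399 (interval 0.371 to 0.430).

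Cohesin and its regulators were lower in 7 and 8 of 14 cases in AFT024 and BFC012, with Smc3 at 0.213 and 0.273, Rad21 at 0.518 and 0.837, and Smc1a at 2.19 and 1.92. As in condensin, the SMC partners of one ring thus differed in their ratio. Of the mitotic entry kinases and phosphatases, 3 of 18 were higher in each line, and 6 were lower in AFT024 and 4 in BFC012. Nek9 was at 9.05 (interval 8.72 to 9.39) and 10.8 (interval 10.5 to 11.1), and Nek2, a kinase of centrosome separation, at 4.71 (interval 4.50 to 4.93) and 9.62 (interval 9.28 to 9.98). Cdc25b, a CDK1-activating phosphatase, was at 1.19 and 1.49 by reads, although the FPKM table lists it at 0 in both exosome groups. The farthest value of the 141 genes was that of Arhgap11a, a RhoA GTPase-activating protein, with 102320 scaled reads in AFT024 exosomes against 3407 in AFT024 cells, and 173382 in BFC012 exosomes against 3410 in BFC012 cells. Its ratios were 30.0 (interval 29.3 to 30.8) and 50.8 (interval 49.6 to 52.1), and its FPKM was 436 and 36.9 in AFT024 exosomes and cells and 964 and 36.8 in BFC012 exosomes and cells. In the same set of 24 spindle and cytokinesis genes, 11 were lower and 2 higher in AFT024, and 4 and 2 in BFC012. Aspm was at 2.93 and 4.14 and Ckap5 at 0.273 and 0.356.

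The transcription factors that act on mitotic promoters were lower in 6 and 5 of 14 cases and higher in 1 in each line. Foxm1 was at 0.630 and 1.22, Rbbp4, a MuvB subunit, at 0.253 and 0.351, and Tfdp1, an E2F partner, at 0.366 and 0.495. In cells Foxm1 was nearly equal between the lines, at 1.10 (interval 1.07 to 1.13). The G1 set of AFT024 had 7 lower and 4 higher genes of 19, and that of BFC012 had 6 and 5 of 18. Ccnd2, cyclin D2, had 51242 scaled reads in AFT024 exosomes against 6394 in AFT024 cells, and 114337 in BFC012 exosomes against 19394 in BFC012 cells. It was higher in exosomes, at 8.01 (interval 7.84 to 8.19) and 5.90 (interval 5.82 to 5.97), and lower in AFT024 than in BFC012 cells, at 0.330 (interval 0.323 to 0.336). Ccnd1 was at 1.85 and 2.31, and Cdk4 at 0.716 and 0.9997.

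Reads and FPKM were set against each other gene by gene. The exosome-to-cell ratio in RPM was a median 1.91 times that in FPKM in AFT024 and 1.40 times in BFC012 over the 37 genes, whereas between cells the factor was 0.990. In AFT024 32 and in BFC012 31 of the 37 genes lay within 0.2 log2 of that factor. Top2a deviated most in both lines, by -1.32 and -1.40 on the log2 scale, followed by Cdk1 (0.62), Cdca8 (0.62) and Cdc20 (0.52) in BFC012 and by Cdc20 (-0.53) and Prc1 (-0.45) in AFT024. For these genes the size of the ratio depends on the unit. Exons of some members are shared with a gene on the other strand, and the counting is not stated to use strand. Ccna2 shares 510 bases with Exosc9 (580 and 661 reads in AFT024 and BFC012 exosomes, 4472 and 2479 in cells). Prc1 shares 911 with Rccd1 (12 and 32 reads in AFT024 and BFC012 exosomes, 387 and 358 in cells). Ube2c shares 592 with Tnnc2 (0 and 4 reads in AFT024 and BFC012 exosomes, 8 and 7 in cells). Near-identical copies of Ccnb1 and Cks2 had 0 to 5 reads where the tables list them. Within the list, the length and GC content of the transcripts went with the exosome-to-cell log2 ratio weakly at most, with a Spearman rho of 0.06 and 0.34 in AFT024 and 0.08 and 0.37 in BFC012 over 37 genes. For coding length rho was 0.20 in AFT024 and 0.22 in BFC012, and for 3′ untranslated length -0.25 and -0.23. The transcripts used gave Incenp 3 bases of 3′ untranslated sequence and Mad2l1 6805. These lengths depend on the transcript chosen, and other choices were not tested. Over all protein-coding genes past the read minimum, rho for 3′ untranslated length was 0.11 in each line. For GC content it was 0.18 in AFT024 and 0.29 in BFC012.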

How the data were processed

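PolyA and small RNA libraries were made from 16 samples, of which the 8 polyA samples (4 groups) are used here. Per the submitters' processing notes, TopHat, Cufflinks and Bowtie were used with mm10, with no role or version given; the counter of reads and the annotation used are not named in these sources. The authors deposited pairwise tables and a table of FPKM. The column headers of the pairwise tables name normalized reads, except for AFT024 exosomes against cells, where they give no unit. That these values are counts divided by a factor was inferred from their steps, as given below. Values are written with decimal commas and hold 1 merged value per group.

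The smallest step between values of a column is worth 1 read, and dividing by it gave back the reads; 100% came out whole within 0.01 reads, and each group's reads were equal in both of its tables. Scaled reads are reads divided by median-of-ratios size factors over 14905 genes (0.368 and 0.644 for exosomes of AFT024 and BFC012, 2.15 and 2.00 for their cells). Ratios carry exact (Clopper-Pearson) 95% intervals of the 2 read numbers. Genes with 20 or more reads in a group formed the background, and a ratio of 2 or 0.5 was the limit. For the ratio a group at 0 reads was put at a floor of 3 reads. A gene with 3 or fewer reads in both groups of a comparison has no ratio. With 1 value per group no test was run. Scripts were tested on simulated data. Alternatives were library size, upper-quartile scaling, size factors without 90 ribosomal protein genes, other read minimums, and FPKM plus 1 or 0.1 on the log2 scale. Library size without 21 genes of the most reads and centring on the median gene were added after seeing the data. Transcript features came from GENCODE M21, the protein-coding transcript with the longest coding sequence per gene. Locus starts, which the deposited table counts from 0, were moved to count from 1. The members and all gene lists were chosen with earlier results of these data known. 1 marker of the hematopoietic list was left out and is not reported here. All members were described, and of other lists the 3 genes with the most scaled reads. Analyses used Python 3.11.15, numpy 2.4.6, pandas 2.3.3, scipy 1.17.1 and blastn 2.17.0.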

Additional observations from a re-analysis of the deposited data

How the results depend on the processing

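No paired analysis was possible because each table column merges the numbered samples of its group, and for the same reason no sample could be left out. Of 100 recomputed counts of members past 2-fold, 84 stayed within 1.5 times the value given and 16 moved. Recomputations with another read minimum used the same members and ratios. Their counts and medians could therefore only repeat the values given, and they are among those that stayed. The members' median log2 ratio kept its direction in all 50 recomputations, and moved by 0.1 or more in 19. Lower genes between cells went from 0 to 1 with library size, upper-quartile scaling or library size without the genes of the most reads. Lower genes between exosomes went from 13 to 20 with FPKM plus 0.1. In AFT024 exosomes against cells, the 2 higher genes became 4 with upper-quartile scaling and 0 with FPKM plus 1 or plus 0.1 as deposited, and the 21 lower genes became 32 and 33 with these 2 pseudocounts. In BFC012 the 6 higher genes became 2 with either library size or FPKM plus 1 relative to the median gene, and 1 with FPKM as deposited, and the 14 lower genes became 26. The cause was not tested. Depth limits Ndc80, Cks2 and Pttg1 most, with 70, 76 and 95 reads in AFT024 exosomes.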
